A study of Mus musculus with 12 samples.

Results

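The genes described here are 10 secreted or receptor regulators of muscle growth: Igf1, its receptor Igf1r, the IGF-binding protein genes Igfbp2 to Igfbp7, Mstn and Fst. They were chosen by name, and every array probe whose RefSeq accession belongs to one of them was taken, which gave 14 of 39429 probes. Igf1 has 4 probes, Igfbp2 has 2 and the other genes have 1 each. Of the 10 genes, 9 passed the filter on dim probes and were tested, among 24571 genes in all.

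RNA of C2C12 cells, an established mouse myoblast line that proliferates in serum and can fuse into myotubes, was hybridised to 12 Agilent arrays in a single colour. All cells were taken 72 h after transfection, and all were grown in high-glucose medium with serum. By the labels there were 4 groups of 3 arrays. They were a negative control whose nature is not stated, the plasmid pcDNA3.1, the plasmid pcDNA3.1-MEG3 and siRNA. The titles give the pcDNA3.1 arrays as pat1, a name not explained, the pcDNA3.1-MEG3 arrays as overexpression and the siRNA arrays as knockdown of MEG3. MEG3 is a long non-coding RNA of an imprinted locus. The labels do not tell whether replicates are separate cultures. The p-values therefore reflect only how far these samples spread, and that spread may be technical. In the siRNA group and both plasmid groups, replicates 1 and 3 came from the same position of a slide, and their spots deviated from the probe means together (correlations of 0.964 in the siRNA group, 0.891 under pcDNA3.1 and 0.816 under pcDNA3.1-MEG3). For the negative control these replicates had separate positions. Their spot deviations correlated at 0.330, no higher than with replicate 2 (0.334 and 0.336). Yet the scaled median absolute deviation of their log2 differences over probes was 0.131, against 0.538 and 0.530 for their differences from replicate 2. That measure is a spread about the median difference and leaves out a shift shared by all probes. In every group replicates 1 and 3 were averaged and counted as 1 sample, which leaves n = 2 samples per group. For the negative control this choice rests on the small differences alone, not on shared spots. The negative control, the plasmid groups and the siRNA group lay on separate slides, so slide and group cannot be told apart except between the plasmid groups.

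The insulin-like growth factors act through the receptor tyrosine kinase IGF1R, which signals through PI3 kinase and AKT to promote growth, survival and differentiation of muscle cells. Secreted IGF-binding proteins hold these ligands in the extracellular space, and proteases release them. Myostatin, the product of Mstn, restrains muscle mass through activin type II receptors, and follistatin, the product of Fst, binds and blocks myostatin and activins.

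The targeted RNA did not follow the plasmid labels. Meg3 probe A_51_P455997 was detected, meaning well above background, on all 3 pcDNA3.1 arrays with a mean log2 level of -2.43. It was detected on 0 of the 3 arrays carrying the pcDNA3.1-MEG3 label (-7.17), on 0 siRNA arrays (-7.31) and on 1 negative control array (-6.69). A second Meg3 probe, A_55_P2033407, was likewise detected on all 3 pcDNA3.1 arrays (-4.01) and on 0 others, and the last, A_52_P196568, on 0 arrays. Group names below are therefore those of the labels, with "pcDNA3.1-MEG3" standing for the arrays so labelled, and the knockdown could not be checked. The number of probes well above background was 24125, 26823 and 24137 on siRNA replicates 1, 2 and 3. It ranged from 27250 to 29900 on the arrays of the other groups. The 75th percentile of the signal ranged from 1168 to 2266 per array, highest on negative control replicate 2. Of the 7 myoblast markers, Myod1, Des, Cdh15, Musk and Chrna1 were well above background on every array. Myf5 was detected on 2 of the 3 pcDNA3.1 arrays, on 1 of the 3 of pcDNA3.1-MEG3 and on all arrays of the other groups. Pax7 was detected on 1 of the 3 siRNA arrays and on all arrays of the other groups. Its means were -4.30 in the negative control, -2.97 in pcDNA3.1, -2.90 in pcDNA3.1-MEG3 and -4.59 in the siRNA group. Markers of other cells were also detected: in the negative control, 7 of 8 fibroblast, 5 of 6 adipocyte, 3 of 6 endothelial and all 5 measured leukocyte markers were so on all 3 arrays, whereas Lep (adipocyte) and Dpt (fibroblast) were detected on 0 arrays of any group. Of 7 tested fibroblast markers, 2 fell in pcDNA3.1 and 3 in pcDNA3.1-MEG3 against the negative control, and 0 were called higher. Of all genes, 6.64% and 6.59% were called lower there. Among the markers that fell was Postn, periostin (log2 differences -2.65, limma adjusted p = 0.00587, and -3.11, adjusted p = 0.00406). Means of Col3a1 (7.18 and 7.03 against 6.95) and Thy1 (-5.50 and -5.80 against -6.31) were higher in the plasmid groups, though not called. The log2 of the summed linear levels of the fibroblast list, to which bright genes add most, was 8.36 in the negative control. It was 8.11 in pcDNA3.1, 7.996 in pcDNA3.1-MEG3 and 8.59 in the siRNA group. The part of these markers in the members' differences was not tested. With other scalings the median of all genes moved: for pcDNA3.1 against the negative control it was 0.22, and -0.23 with median centring. The share of higher genes among those called moved with it, from 62.9% to 19.8% in that comparison, from 53.2% to 14.2% for pcDNA3.1-MEG3 against the negative control, and from 62.5% to 41.1% for siRNA against the negative control. Against the plasmid groups it rose with median centring, from 58.0% to 80.9% with pcDNA3.1 as the reference and from 56.9% to 76.1% with pcDNA3.1-MEG3. The called members kept their directions under both other scalings, quantile normalization and median centring, but not all stayed called. Igfbp4 for siRNA against pcDNA3.1 was lost under both (limma adjusted p = 0.0561 and 0.0526). Igfbp6 for pcDNA3.1 against the negative control was lost with quantile normalization (0.0722). With median centring, Igfbp5 in that comparison (0.497) and Fst for siRNA against the negative control (0.0549) were lost.

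The promoter windows of 5 members are shown because Igf1, Igfbp2, Igfbp3 and Igfbp7 were low together in both plasmid groups, whereas Igfbp4 was lowest on the siRNA arrays. Each holds the 250 bases before the RefSeq start (GRCm38.p6), read 5′ to 3′ on the gene's strand. Capitals mark matches, on either strand, to the E-box CANNTG bound by muscle basic helix-loop-helix factors, the TATA box TATAAA and the GC box GGGCGG.
Igf1, chr10:87860861-87861110, plus strand: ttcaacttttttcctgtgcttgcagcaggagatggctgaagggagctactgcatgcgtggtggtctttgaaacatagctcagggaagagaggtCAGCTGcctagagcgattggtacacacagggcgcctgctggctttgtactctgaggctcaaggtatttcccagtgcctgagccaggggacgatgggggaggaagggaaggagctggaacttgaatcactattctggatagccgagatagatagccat
Igfbp2, chr1:72824230-72824479, plus strand: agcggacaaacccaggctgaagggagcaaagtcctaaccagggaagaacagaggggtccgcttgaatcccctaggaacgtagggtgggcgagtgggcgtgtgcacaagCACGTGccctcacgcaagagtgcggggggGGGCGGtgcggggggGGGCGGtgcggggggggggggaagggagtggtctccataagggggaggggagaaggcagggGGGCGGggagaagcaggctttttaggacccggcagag
Igfbp3, chr11:7213924-7214173, minus strand: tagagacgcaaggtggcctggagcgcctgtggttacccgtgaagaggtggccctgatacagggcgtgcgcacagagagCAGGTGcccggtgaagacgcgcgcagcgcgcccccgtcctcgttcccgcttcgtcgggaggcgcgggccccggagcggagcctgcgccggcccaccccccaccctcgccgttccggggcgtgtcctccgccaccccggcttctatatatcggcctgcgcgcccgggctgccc
Igfbp7, chr5:77408046-77408295, minus strand: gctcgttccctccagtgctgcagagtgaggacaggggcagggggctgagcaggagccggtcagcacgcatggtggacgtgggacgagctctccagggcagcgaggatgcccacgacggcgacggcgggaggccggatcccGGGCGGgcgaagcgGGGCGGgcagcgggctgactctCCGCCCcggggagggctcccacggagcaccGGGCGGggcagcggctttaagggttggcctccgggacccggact
Igfbp4, chr11:99040994-99041243, plus strand: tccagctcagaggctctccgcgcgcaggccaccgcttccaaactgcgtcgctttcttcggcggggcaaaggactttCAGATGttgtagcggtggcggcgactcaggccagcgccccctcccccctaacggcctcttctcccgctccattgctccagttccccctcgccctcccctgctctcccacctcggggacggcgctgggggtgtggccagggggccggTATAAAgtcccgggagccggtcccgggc
RefSeq windows were found for 9 of the 10 members, with 2 for Igfbp2, of which the first is shown, and Fst was not matched. An E-box match stood in 8 of these 10 windows, and in 66.2% of all 32851 windows of this length. TATA box matches stood in 3 of 10 windows and in 12.4% of all, and GC box matches in 3 of 10 and in 32.7% of all. No base of a member's window lay in more than 1 match. The Igfbp7 window held 4 GC boxes and 0 E-boxes, and the Igfbp2 window 3 GC boxes and 1 E-box. The 4 windows of genes that were low together thus shared none of these motifs throughout, and a match is a description of letters only.

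Levels are given as log2 of the processed signal minus the 75th percentile of the array, so that 0 is a bright probe of that array, and levels of different probes are not compared. In each pair of values the first is the mean of replicates 1 and 3 and the second is replicate 2. A gene was called where limma's adjusted p was under 0.05, and SE is the error of the log2 difference. Every call below was lost with one background correction (normexp), under which 0 members passed in any comparison and 0 genes were called. The counts of members called were within 1.5 times of those given once 36 outlying local backgrounds were replaced, a step added after that result had been seen.

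**Figure D1:**
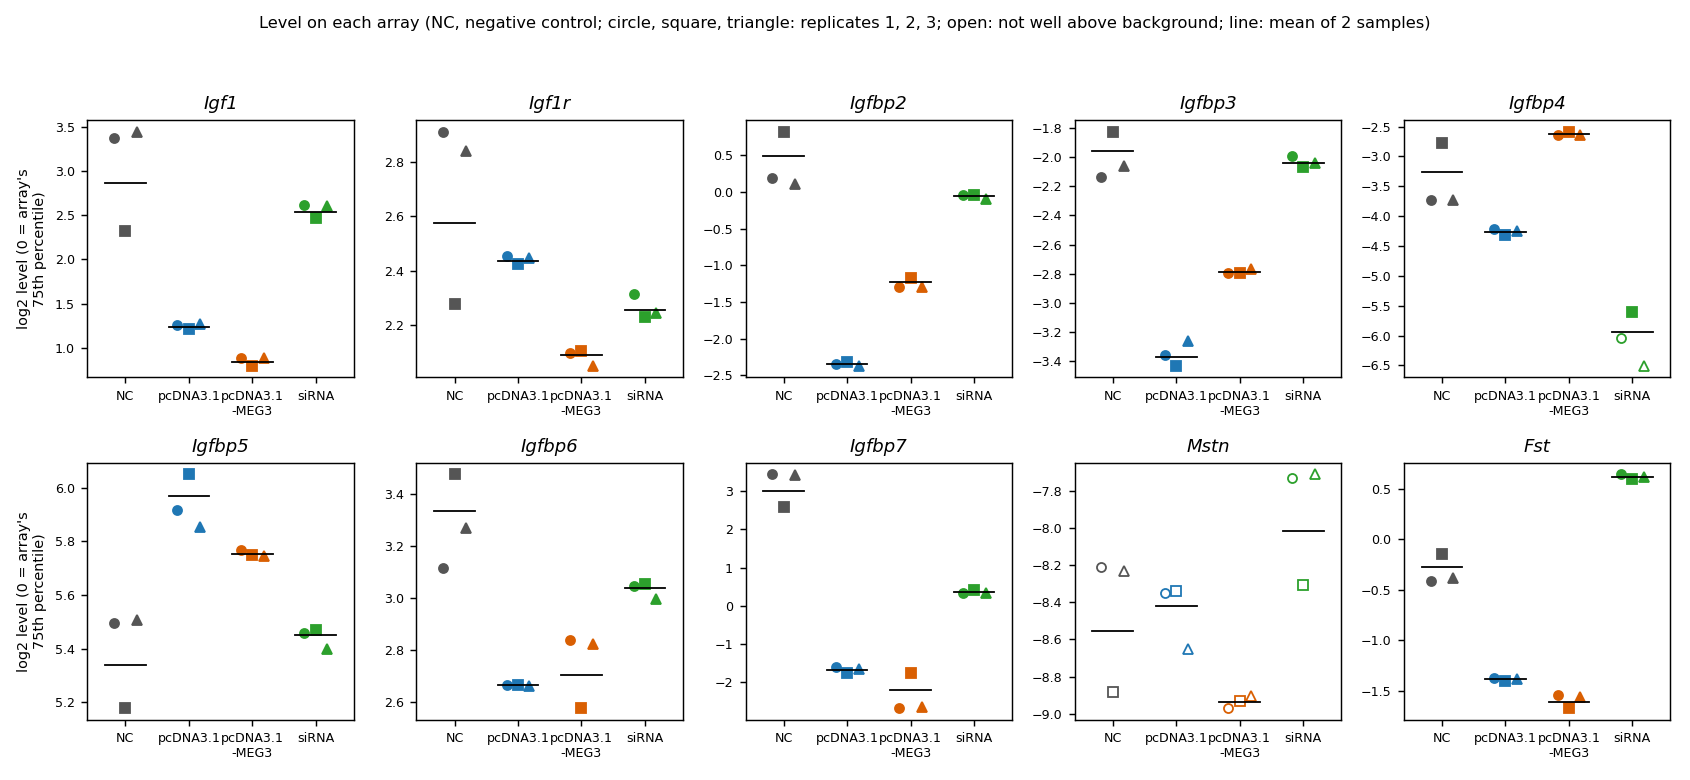
Levels of the 10 members on each of the 12 arrays: log2 signal relative to the array's 75th percentile against the 4 groups, with replicates 1, 2 and 3 as circles, squares and triangles, open symbols for arrays not well above background, and lines for the mean of the 2 samples. Igfbp7 sits highest on the negative control arrays and Fst highest on the siRNA arrays, and all Mstn symbols are open.

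Igf1, the ligand, had by its brightest probe the highest mean in the negative control and the lowest means in the plasmid groups. Its level was 3.41 and 2.32 in the negative control, 1.27 and 1.21 in pcDNA3.1, 0.88 and 0.80 in pcDNA3.1-MEG3, and 2.61 and 2.47 in the siRNA group. Every plasmid array lay below every array of the other groups and the siRNA arrays lay between the lowest and highest negative control arrays. Igf1 fell 3.09-fold in pcDNA3.1 (log2 difference -1.63, SE 0.34, adjusted p = 0.0285) and 4.07-fold in pcDNA3.1-MEG3 (-2.02, SE 0.34, adjusted p = 0.0197), both against the negative control. It was 3.24-fold higher in the siRNA group than in pcDNA3.1-MEG3 (1.70, SE 0.34, adjusted p = 0.0251). The first call was lost without any single plasmid sample (adjusted p 0.0704 to 0.142), the second without either pcDNA3.1-MEG3 sample (0.119 and 0.141), and the last without any single plasmid sample or siRNA replicates 1 and 3 (0.0536 to 0.150). Against pcDNA3.1 the siRNA value of 1.30 did not pass (adjusted p = 0.0647), though it passed under 9 of 19 alternatives. Against the negative control the siRNA value was -0.33 with a 95% interval of -1.17 to 0.51, and it was 0.22 (adjusted p = 0.186) without negative control replicates 1 and 3 and -0.87 (adjusted p = 0.00949) without replicate 2.

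The 4 probes of Igf1 gave differences of unequal size, and that inequality was not tested. Probes A_55_P2085974 and A_55_P2085984 gave -1.56 and -1.74 for pcDNA3.1 against the negative control and -1.97 and -2.06 for pcDNA3.1-MEG3, close to the values of the brightest probe, A_55_P2031631. For siRNA against pcDNA3.1 they gave 1.28 (adjusted p = 0.0407) and 1.38 (adjusted p = 0.0562). The dim probe A_55_P2031636 gave -0.43 and -0.45 for the plasmid groups against the negative control, and neither passed (adjusted p = 0.125 and 0.118). All 4 probes list the same transcript accession.

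Igf1r, the receptor tyrosine kinase for Igf1, was called in none of the 6 comparisons. Its level was 2.88 and 2.28 in the negative control, 2.45 and 2.42 in pcDNA3.1, 2.07 and 2.10 in pcDNA3.1-MEG3, and 2.28 and 2.23 in the siRNA group. The pcDNA3.1-MEG3 arrays lay below all others, and the negative control arrays overlapped those of pcDNA3.1 and of the siRNA group. The log2 differences ran from -0.49 (SE 0.21, adjusted p = 0.173, pcDNA3.1-MEG3 against the negative control) to 0.16 (siRNA against pcDNA3.1-MEG3). The 95% interval of the former, -1.01 to 0.04, does not show that the groups were alike. The value for siRNA against pcDNA3.1, -0.18, turned to 0.08 with median centring. Without negative control replicate 2, Igf1r was called lower in all 3 other groups against the negative control: -0.62 in the siRNA group (adjusted p = 0.00986), -0.44 in pcDNA3.1 (0.0201) and -0.79 in pcDNA3.1-MEG3 (0.00429). Without replicates 1 and 3 the pcDNA3.1 value turned from -0.14 to 0.16 (adjusted p = 0.159). Between the plasmid groups, Igf1r was called without either negative control sample (-0.35, adjusted p = 0.0447).

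Igfbp2 encodes a binding protein of both IGFs. It stood at 0.16 and 0.82 in the negative control, -2.36 and -2.32 in pcDNA3.1, -1.29 and -1.17 in pcDNA3.1-MEG3, and -0.06 and -0.04 in the siRNA group. The order was negative control, siRNA, pcDNA3.1-MEG3 and pcDNA3.1, with no overlap between arrays of any groups, and of the neighbours in that order only siRNA and pcDNA3.1-MEG3 differed past the test (1.18, SE 0.23, adjusted p = 0.0235). Igfbp2 fell 7.12-fold in pcDNA3.1 (-2.83, SE 0.23, adjusted p = 0.00217) and 3.30-fold in pcDNA3.1-MEG3 (-1.72, adjusted p = 0.0103) against the negative control. It was 4.88-fold higher in the siRNA group than in pcDNA3.1 (2.29, adjusted p = 0.00400). Without either pcDNA3.1-MEG3 sample the fall in pcDNA3.1-MEG3 was not called (adjusted p 0.0873 and 0.0903), and the siRNA difference from pcDNA3.1-MEG3 was lost without any single plasmid sample (0.0583 to 0.148).

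The second Igfbp2 probe, A_55_P2056729, passed the test against pcDNA3.1 as the brighter probe did, but not against pcDNA3.1-MEG3. It gave -2.35 for pcDNA3.1 against the negative control (adjusted p = 0.00511) and 1.96 for siRNA against pcDNA3.1 (adjusted p = 0.00876). For pcDNA3.1-MEG3 against the negative control it gave -0.58 (adjusted p = 0.169), and for siRNA against pcDNA3.1-MEG3 0.19 (adjusted p = 0.601). With the mean of both probes, siRNA against pcDNA3.1-MEG3 no longer passed (0.69, adjusted p = 0.103).

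**Figure D2:**
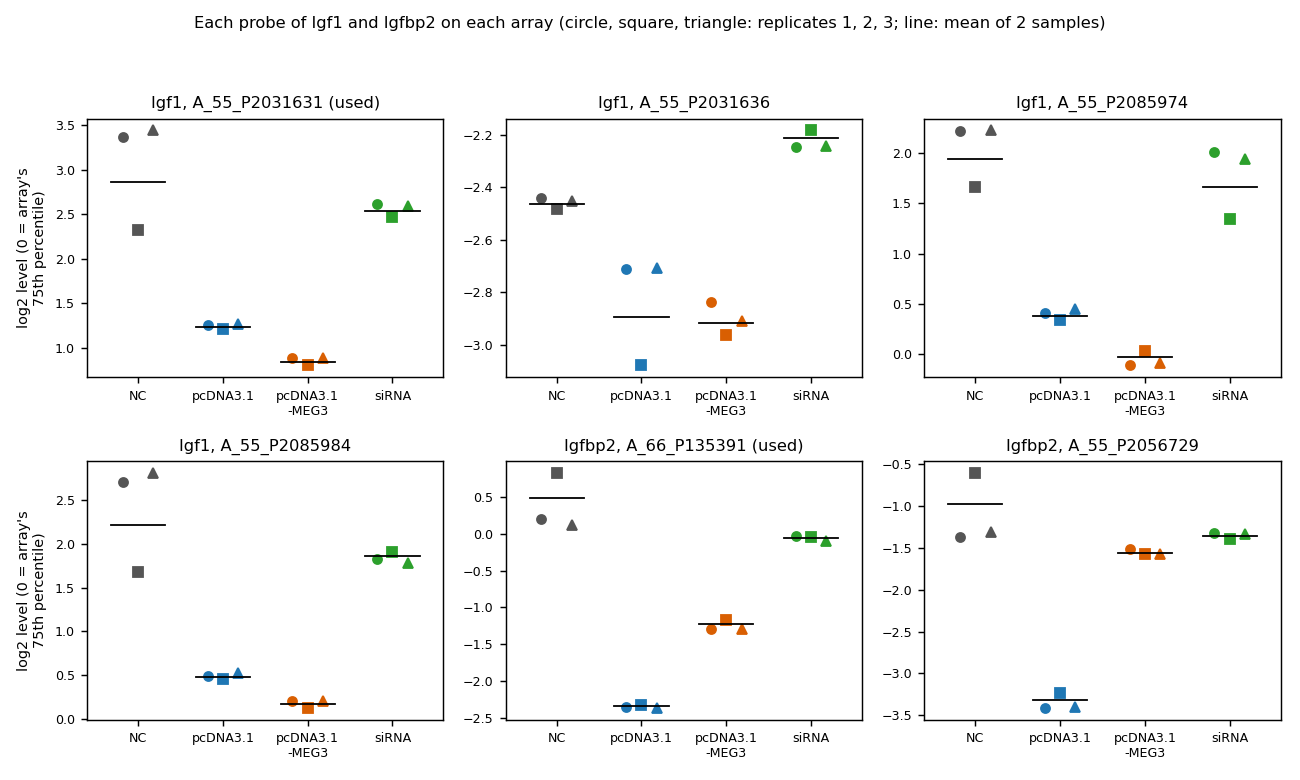
Each of the 4 Igf1 probes and 2 Igfbp2 probes on the 12 arrays: log2 level relative to the array's 75th percentile against the group, with replicates 1, 2 and 3 as circles, squares and triangles, lines for the mean of 2 samples, and a separate vertical scale per panel. The plasmid arrays lie lowest for all 4 Igf1 probes, and the second Igfbp2 probe puts pcDNA3.1-MEG3 at -1.56, near the siRNA mean of -1.36.

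Igfbp3, the main IGF carrier in serum, was low in the plasmid groups. Its level was -2.10 and -1.83 in the negative control, -3.31 and -3.43 in pcDNA3.1, -2.78 and -2.80 in pcDNA3.1-MEG3, and -2.02 and -2.07 in the siRNA group. The siRNA arrays lay within the range of the negative control arrays, and the plasmid arrays lay below both. Igfbp3 fell 2.66-fold in pcDNA3.1 (-1.41, SE 0.15, adjusted p = 0.00486) and 1.78-fold in pcDNA3.1-MEG3 (-0.83, SE 0.15, adjusted p = 0.0230) against the negative control. It was higher in the siRNA group than in pcDNA3.1 (1.33, adjusted p = 0.00540) and pcDNA3.1-MEG3 (0.75, adjusted p = 0.0242). The pcDNA3.1-MEG3 fall was lost without any single plasmid sample (adjusted p 0.0569 to 0.169). The siRNA difference from pcDNA3.1-MEG3 was lost without any single plasmid or siRNA sample (0.0539 to 0.163), and that from pcDNA3.1 without pcDNA3.1 replicate 2 (0.0567). Across the 8 samples the gene most like Igfbp2 was Igfbp3, with a Pearson correlation of 0.989, a description over samples that share groups and slides.

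Igfbp4, a binding protein that the protease pappalysin cleaves, was the only tested member whose lowest mean was that of the siRNA group. It measured -3.73 and -2.78 in the negative control, -4.23 and -4.31 in pcDNA3.1, -2.65 and -2.59 in pcDNA3.1-MEG3, and -6.27 and -5.61 in the siRNA group. Its signal cleared the background on every array of the other groups but on just 1 of the 3 siRNA arrays, and the siRNA arrays lay below every other array. The siRNA array that detected it, replicate 2, also had the most probes well above background in that group. Taking the dim arrays at the lowest signal well above background where that was higher, Igfbp4 was at least 5.76-fold lower in the siRNA group than in the negative control (fitted -2.69, adjusted p = 0.0106), at least 2.85-fold lower than in pcDNA3.1 (-1.67, adjusted p = 0.0383) and at least 8.96-fold lower than in pcDNA3.1-MEG3 (-3.33, adjusted p = 0.00395). With normexp background correction the value against the negative control turned to 0.42 (adjusted p = 0.828), and it was -1.12 (adjusted p = 0.0131) once outlying local backgrounds were replaced, a setting chosen after the former had been seen. In that setting the value against pcDNA3.1 was -0.56 (adjusted p = 0.118) and that against pcDNA3.1-MEG3 -1.60 (adjusted p = 0.00194). All 3 are smaller than the bounds above, which hold only for the signal and scaling used here. The normexp runs added an offset of 50, above the processed Igfbp4 signals on the siRNA arrays (18.1, 26.0 and 12.9). The part of that offset in these values was not tested. The siRNA call against pcDNA3.1 was lost under 11 of 18 alternatives, among them those without any single plasmid sample or siRNA replicates 1 and 3 (adjusted p 0.0748 to 0.187).

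Igfbp5, the binding protein that rises as myoblasts differentiate, was bright everywhere. Its level was 5.50 and 5.18 in the negative control, 5.89 and 6.05 in pcDNA3.1, 5.76 and 5.75 in pcDNA3.1-MEG3, and 5.43 and 5.47 in the siRNA group. The plasmid arrays lay above all other arrays. It rose 1.55-fold in pcDNA3.1 against the negative control (0.63, SE 0.16, adjusted p = 0.0470), a call lost under 10 of 19 alternatives, among them those without any single plasmid sample (adjusted p 0.112 to 0.209). With median centring it was 0.18 (adjusted p = 0.497). The siRNA value against the negative control was 0.11 with a 95% interval of -0.28 to 0.50.

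Igfbp6, a binding protein that prefers IGF2, showed small differences. It was at 3.19 and 3.48 in the negative control, 2.66 and 2.66 in pcDNA3.1, 2.83 and 2.58 in pcDNA3.1-MEG3, and 3.02 and 3.05 in the siRNA group. All plasmid arrays lay below all other arrays. It fell 1.59-fold in pcDNA3.1 (-0.67, SE 0.16, adjusted p = 0.0422), a call lost under 11 of 19 alternatives, among them those without any single plasmid sample (adjusted p 0.0870 to 0.195). The value of -0.63 in pcDNA3.1-MEG3 did not pass (adjusted p = 0.0563).

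Igfbp7, a secreted relative that binds IGFs weakly, had the widest range of the tested members. Its level was 3.43 and 2.59 in the negative control, -1.63 and -1.75 in pcDNA3.1, -2.66 and -1.76 in pcDNA3.1-MEG3, and 0.33 and 0.41 in the siRNA group. The negative control arrays were highest, the siRNA arrays intermediate and the plasmid arrays lowest, and only the plasmid groups lay close to each other. Against the negative control it fell 25.9-fold in pcDNA3.1 (-4.69, SE 0.38, adjusted p = 0.00213), 37.3-fold in pcDNA3.1-MEG3 (-5.22, adjusted p = 0.00152) and 6.22-fold in the siRNA group (-2.64, adjusted p = 0.0133). The siRNA group was 4.16-fold above pcDNA3.1 (2.06, adjusted p = 0.0262) and 5.99-fold above pcDNA3.1-MEG3 (2.58, adjusted p = 0.0101). Igfbp7 thus differed in 5 of the 6 comparisons. The siRNA call against pcDNA3.1 was lost without either pcDNA3.1 sample (adjusted p 0.129 and 0.130), and that against pcDNA3.1-MEG3 without pcDNA3.1-MEG3 replicates 1 and 3 (0.0626).

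Mstn, the gene of myostatin, was not well above background on any of the 12 arrays and was not tested. Its means were -8.55 in the negative control, -8.42 in pcDNA3.1, -8.93 in pcDNA3.1-MEG3 and -8.02 in the siRNA group. No order or fold between groups can be read from values below background.

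Fst, the gene of follistatin, was highest on the siRNA arrays and lowest on the plasmid arrays. It measured -0.40 and -0.15 in the negative control, -1.38 and -1.40 in pcDNA3.1, -1.55 and -1.67 in pcDNA3.1-MEG3, and 0.63 and 0.60 in the siRNA group. No arrays of different groups overlapped. Fst rose 1.86-fold in the siRNA group (0.89, SE 0.15, adjusted p = 0.0185) and fell 2.17-fold in pcDNA3.1 (-1.12, adjusted p = 0.00842) and 2.53-fold in pcDNA3.1-MEG3 (-1.34, adjusted p = 0.00534), all against the negative control. The siRNA group was 4.03-fold above pcDNA3.1 (2.01, adjusted p = 0.00142) and 4.70-fold above pcDNA3.1-MEG3 (2.23, adjusted p = 0.000936). The rise against the negative control was lost under 8 of 19 alternatives, among them those without any single plasmid sample or siRNA replicates 1 and 3 (adjusted p 0.0536 to 0.0624). The falls were lost without either sample of their own plasmid group (0.0544 to 0.0749). All 10 markers of differentiating muscle were also higher on the siRNA arrays than in the negative control, with a median of 4.22, among them Myog (3.46). The log2 of their summed linear levels was 5.83 on the siRNA arrays, against 0.40 in the negative control, 1.13 in pcDNA3.1 and 1.22 in pcDNA3.1-MEG3. Of these 10 markers, 0 were undetected throughout a group. Their part in the Fst result was not tested.

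**Figure D3:**
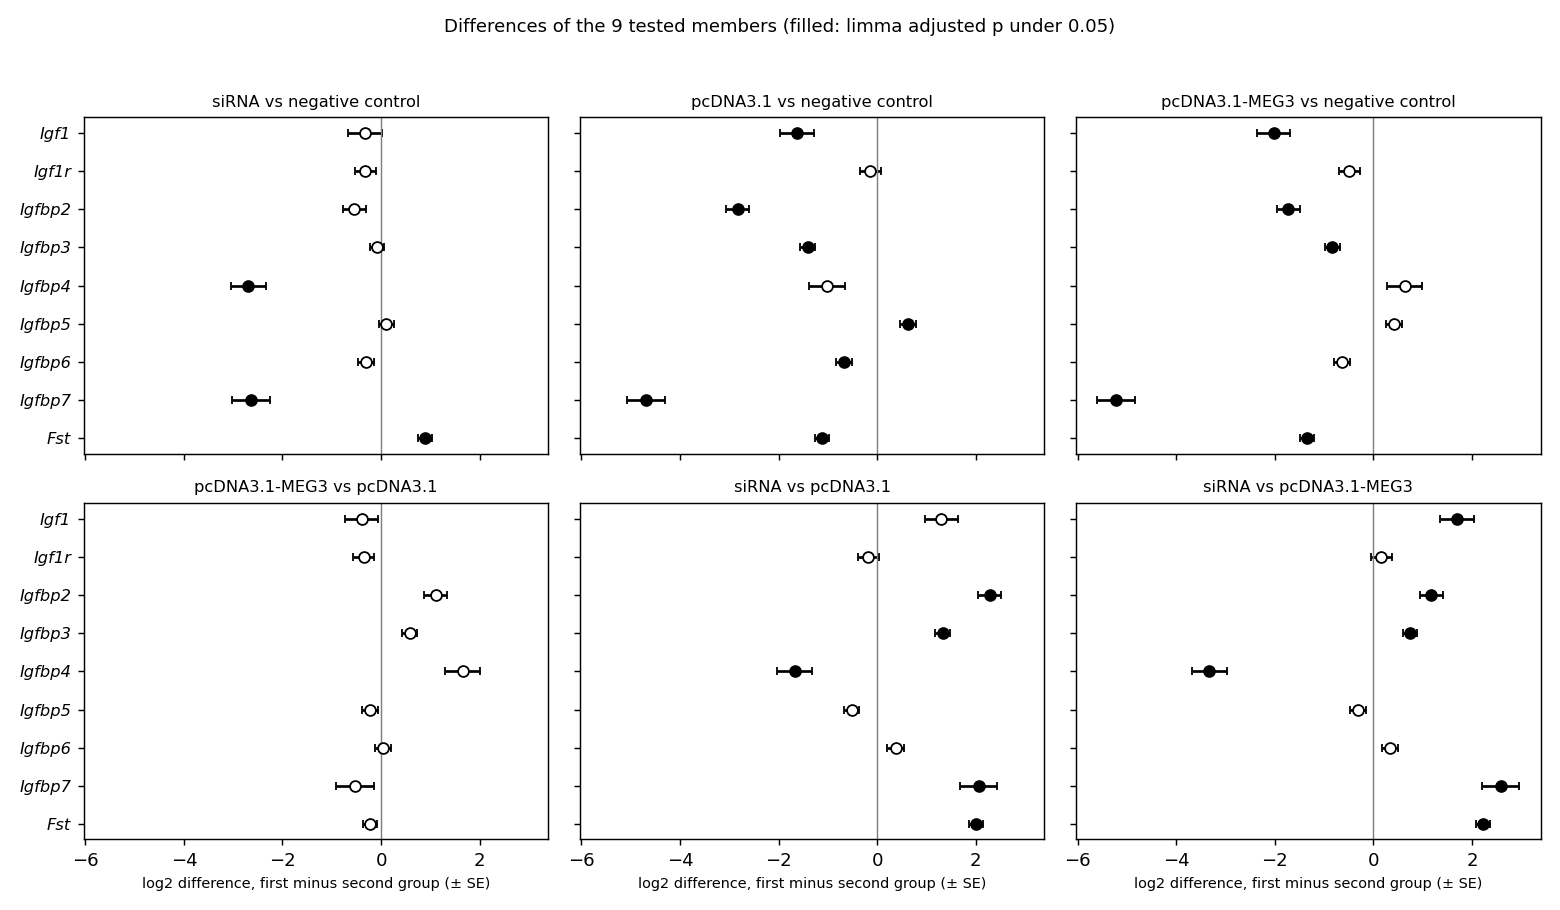
Log2 differences, first minus second group with SE bars, of the 9 tested members in the 6 comparisons, from 1 limma fit over 8 samples, with filled points for adjusted p under 0.05. The panel of pcDNA3.1-MEG3 against pcDNA3.1 has no filled point, and Igfbp7 reaches -5.22 in that of pcDNA3.1-MEG3 against the negative control.

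The comparison labelled as knockdown sets siRNA against the negative control. Fst was higher and Igfbp4 and Igfbp7 were lower, and 6 of 9 members did not pass. Of all genes, 7.75% were called higher and 4.64% lower. The members' median was -0.32, against 0.06 for all genes. Fitted alone, these 2 groups gave 158 of 24526 genes called, and counts of all genes also moved with a sample left out. The count of 3 members was 0 with these 2 groups fitted alone, 5 without negative control replicate 2, and 2 to 4 without any other single sample.

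Between the plasmid groups, the overexpression comparison by its labels, 0 of 9 members were called, against 0% of all genes higher and 0.00814% lower. At an unadjusted p under 0.05 there were 2497 of 24565 genes and 3 of 9 members. These members were Igfbp4 (1.65, SE 0.36, adjusted p = 0.231), Igfbp2 (1.11, SE 0.23, adjusted p = 0.219) and Igfbp3 (0.58, SE 0.15, adjusted p = 0.295), all higher in pcDNA3.1-MEG3. Within the first scan of their slide, with 2 arrays per group, these differences ran from 0.60 for Igfbp3 to 1.65 for Igfbp4. There 3 members passed, beside 1770 of 24562 genes. Within the second scan, with 1 array per group, the differences ran from 0.50 to 1.60. With the 6 arrays and scan as a block 6 members passed, beside 11182 of 24565 genes, but replicates 1 and 3 are then counted as separate samples. The count was 3 with the compared groups alone, beside 1960 of 24565 genes.

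Against the negative control, more members were lower than higher in both plasmid groups. In pcDNA3.1, 1 of 9 was higher and 6 were lower, against 11.3% and 6.64% of all genes, with a median of -1.12 against 0.22. In pcDNA3.1-MEG3, 0 were higher and 5 lower, against 7.48% and 6.59%, with a median of -0.83 against 0.16. These comparisons share the negative control samples and are not independent. Counts of all genes called moved with the sample left out, as given at the end, and so did those of the members. The count of 7 in pcDNA3.1 was 3 without either pcDNA3.1 sample and 4 without either pcDNA3.1-MEG3 sample. The count of 5 in pcDNA3.1-MEG3 was 1 without either of its own samples and 8 without negative control replicate 2. Interferon response genes were higher beside these members, 7 of 9 measured in pcDNA3.1 (median 5.07) and 9 of 9 in pcDNA3.1-MEG3 (median 5.17). The log2 of their summed linear levels was 6.17 and 6.36 there, against 1.30 in the negative control and 2.08 in the siRNA group. Of these genes, 3 of 9 were undetected throughout the negative control. Their part in the members' differences was not tested.

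Against the plasmid groups, the siRNA arrays had 4 members higher and 1 lower than pcDNA3.1, where 6.69% and 4.84% of all genes were called, with a median of 1.30 against -0.14. Against pcDNA3.1-MEG3 there were 5 higher and 1 lower, where 9.77% and 7.42% of all genes were called, with a median of 0.75 against -0.06. These comparisons share the siRNA samples. Here too, counts of all genes called moved with the sample left out. The count of 5 against pcDNA3.1 was 3 without pcDNA3.1 replicates 1 and 3 and 2 without its replicate 2. The count of 6 against pcDNA3.1-MEG3 was 3 without either pcDNA3.1 sample, 2 without pcDNA3.1-MEG3 replicates 1 and 3 and 3 without its replicate 2.

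Other genes of these pathways came from 4 lists of 78 genes, of which 70 or 71 were tested. Higher and lower genes numbered 9 and 2 for siRNA against the negative control, 0 and 0 between the plasmid groups, 5 and 6 for pcDNA3.1 and 3 and 7 for pcDNA3.1-MEG3 against the negative control, 13 and 2 for siRNA against pcDNA3.1, and 19 and 4 against pcDNA3.1-MEG3. The shares of all genes called higher and lower were, in that order, 7.75% and 4.64%, 0% and 0.00814%, 11.3% and 6.64%, 7.48% and 6.59%, 6.69% and 4.84%, and 9.77% and 7.42%. The medians of these genes were 0.14, -0.12, -0.01, -0.15, 0.18 and 0.35 in that order.

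Among ligands and receptors, Igf2, the fetal ligand, rose in the siRNA group against the negative control (0.76, SE 0.18, adjusted p = 0.0471), and stood 1.09 above both plasmid groups. Igf2r, the receptor that clears IGF2, was higher than in pcDNA3.1-MEG3 (0.76, adjusted p = 0.0345). Insrr, an insulin receptor relative, was at least 2.09-fold higher in pcDNA3.1 and at least 1.81-fold higher in pcDNA3.1-MEG3 than in the negative control, none of whose arrays detected it. Of 9 tested proteases of the binding proteins and their inhibitors, Stc2, the pappalysin inhibitor stanniocalcin 2, rose in the siRNA group (1.13, SE 0.18, adjusted p = 0.0175). Pappa, the pappalysin that cleaves Igfbp4, was higher in the siRNA group than in pcDNA3.1-MEG3 (1.04, adjusted p = 0.0318), whereas Ctsd, cathepsin D, was lower there (-0.65, adjusted p = 0.0394).

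In the relay of the IGF signal, 3 of 33 tested genes rose and 1 fell in the siRNA group against the negative control, where 7.75% of all genes were higher and 4.64% lower. Among those that rose, Foxo1, a transcription factor that AKT inhibits, rose by 0.78 (SE 0.13, adjusted p = 0.0186) and Gab1, a docking protein, by 0.62 (SE 0.13, adjusted p = 0.0384). Tsc2, an inhibitor of mTORC1, fell (-0.82, adjusted p = 0.0431) and was detected on 2 of the 3 siRNA arrays. Grb14, an inhibitory adaptor of the insulin receptor, fell 4.18-fold in pcDNA3.1 (-2.06, SE 0.33, adjusted p = 0.0143) and 5.63-fold in pcDNA3.1-MEG3 (-2.49, adjusted p = 0.00972), and Rheb, the GTPase that activates mTORC1, fell by 0.92 and 1.08. Shc1, an adaptor, fell in pcDNA3.1-MEG3 (-0.67, adjusted p = 0.0463). Igf2bp3, an RNA-binding protein of the Igf2 messenger, rose 4.33-fold in pcDNA3.1 (2.11, adjusted p = 0.00461) and 4.90-fold in pcDNA3.1-MEG3 (2.29, adjusted p = 0.00376). Against pcDNA3.1-MEG3 the siRNA group was also higher for Grb14 (1.61, adjusted p = 0.0263) and Sos1, a Ras activator (0.71, adjusted p = 0.0429).

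In the myostatin and activin pathway, 4 of 22 tested genes rose and 1 fell in the siRNA group against the negative control, beside the same 7.75% and 4.64% of all genes. Tcap, a sarcomere protein that binds myostatin, rose 5.09-fold (2.35, SE 0.26, adjusted p = 0.00592). Tll1, a protease of the family that activates myostatin, rose by 1.02, Fstl3, a follistatin relative, by 0.94 and Inha, the inhibin alpha subunit, by 0.92. Acvr1b, a type I activin receptor, was at least 2.08-fold lower and was detected on 0 of the 3 siRNA arrays. In the plasmid groups Inhba, the activin A subunit, fell by 1.34 and 1.06, Fstl1, a follistatin-like glycoprotein, by 0.77 and 1.03, and Dcn, decorin, by 0.50 and 0.77. Smad7, the inhibitory SMAD, fell by 1.86 and 1.89. Wfikkn1, a myostatin-binding protein, rose by 1.15 and 1.05, and its relative Wfikkn2 (1.44) and Tll1 (1.12) rose in pcDNA3.1. Against pcDNA3.1, Fstl3 was 1.51, Inhba 1.49 and Tcap 1.59 higher in the siRNA group, and Wfikkn1 was lower (-1.13, adjusted p = 0.0243). Smad7 was 1.48 higher there, but its siRNA value came from 1 sample, since its spots were outlying on the other arrays.

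The genes whose levels over the 8 samples were most like those of a member are given as a description. They were Slc39a13 and Mtss2 for Igf1 (Pearson correlations 0.998 and 0.996), Arfip1 and Ubxn4 for Igfbp7 (0.997 and 0.995), and Nrep and Calhm5 for Fst (0.999 and 0.996). For Igfbp4 they were Pcyt1b and Kcnk5 (0.991 and 0.986), for Igfbp5 Gpr137b-ps and Epb41l4b (0.988 and 0.979), and for Igfbp6 H3c3 and Sema4g (0.997 and 0.975). The next gene for both Igfbp2 and Igfbp3 was Mtnr1a (0.986 and 0.984). Igf1r, with the smallest SD over the samples (0.25), had the lowest, 0.928 with Pura and 0.925 with E330013P04Rik. These were the highest 2 correlations of each member among 5711 or 5712 genes, and the samples share groups and slides.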

How the data were processed

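RNA levels were measured in 12 samples of C2C12 cells, 3 arrays in each of 4 transfection groups. The files deposited give, per the file headers, linear intensity values per spot from Agilent Feature Extraction 11.0.1.1, background-subtracted and detrended within each array, beside flags for detection and outlying spots. A table of processed intensity values deposited for the whole series, with column medians of 276 to 277 and an unstated scale, was used as an alternative.

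Controls (1377 of 44397 spots) and outlying spots were left out, and 0 spots were saturated. Each array's 75th percentile was subtracted from the log2 signal. Probes well above background on all 3 arrays of at least 1 group were kept (29607), and the brightest kept probe stood for a gene. A probe whose spots were all outlying on an array counted as not well above background there, however bright. Counts of arrays that detected a gene include such cases as not detected. Symbols came from a RefSeq table by accession (27234 probes matched), of which no coordinates were used for probes, since the array files follow an earlier build. With replicates 1 and 3 of each group averaged, 8 samples were fitted together (limma 3.58.1 in R 4.3.3). The test had 4 residual degrees of freedom and 1.90 from the prior, was two-sided and was adjusted over all genes by the Benjamini-Hochberg method. The fit was tested on simulated data. The number of arrays limits the precision.

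Named were all probes of the members and of Meg3, up to 4 called genes with the largest change in each direction per pathway list and comparison, and per member the 2 most correlated genes with an SD of at least 0.5. A gene that this rule names is not reported here. The members, lists and tests, the averaging of replicates included, were chosen with earlier results of these data known. Alternatives changed the scaling, background correction, filter, probe rule, samples and blocks. The normexp alternative used the median spot signal, not the mean signal the plan named, and an offset of 50. Same-numbered replicates did not deviate together (mean correlations -0.10 to 0.01), so numbers were not taken to pair samples.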

Additional observations from a re-analysis of the deposited data

How the results depend on the processing

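Counts of members called were recomputed under each alternative. With 12 arrays as 12 samples, 3 members passed between the plasmid groups, 9 in pcDNA3.1-MEG3 against the negative control and 8 for siRNA against pcDNA3.1. With the compared groups alone the counts were 0 for siRNA against the negative control and 3 between the plasmid groups. The plasmid comparison gave 3 with the first scan alone and 6 with scan as a block. Leaving out each sample in turn gave 2 to 5 for siRNA against the negative control, 0 to 4 between the plasmid groups, 3 to 8 for pcDNA3.1 and 1 to 8 for pcDNA3.1-MEG3 against the negative control, 2 to 7 for siRNA against pcDNA3.1 and 2 to 6 against pcDNA3.1-MEG3. A lone sample is then assumed to vary like the other groups. The cause of these changes was not tested.

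With normexp background correction as planned, 0 members passed in every comparison, against 3, 7, 5, 5 and 6 outside the plasmid comparison, and Igfbp4 for siRNA against the negative control turned from -2.69 to 0.42. On 3 arrays a few spots had a local background far above their signal, and normexp lifted the 1st percentile of the corrected signal there to 947 to 1220, against 56.1 to 58.7 on the other 9 arrays. After this had been seen, a second run was added in which 36 local backgrounds above 10 times their array's median were replaced by that median. The 1st percentile on those arrays was then 56.4 to 67.0. It gave 3, 0, 5, 5, 4 and 6 members, each within 1.5 times of the reported count, for siRNA against the negative control, the plasmids, pcDNA3.1 and pcDNA3.1-MEG3 against the negative control, and siRNA against pcDNA3.1 and pcDNA3.1-MEG3. This second run was chosen with the result of the first in view.

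With the replicate block the counts were 3, 0, 5, 4, 4 and 5 in the same order. Called differences lost under the block were those of Igfbp5 and Igfbp6 for pcDNA3.1 against the negative control (adjusted p = 0.0823 and 0.0763), Igfbp3 for pcDNA3.1-MEG3 against the negative control (0.0510) and for siRNA against pcDNA3.1-MEG3 (0.0526), and Igfbp7 for siRNA against pcDNA3.1 (0.0552). Over all genes, in the same order, calls numbered 3040, 2, 4397, 3456, 2828 and 4216. They numbered 9846, 3003, 12099, 11786, 11446 and 11674 with 12 arrays, and 0 throughout with normexp as planned. The compared groups alone gave 158 and 1960 in the first and second comparison, and 4442 and 7352 in the last ones. The block gave 1838, 1, 2048 and 1763 in the first, the second, the fourth and the fifth, and no filter on dim probes 1966, 2291 and 1809 in the first, the fourth and the fifth. Between the plasmid groups other settings gave 9 (quantile), 10 (the series table, and the repaired normexp), 22 (probes detected on all 12 arrays), 1770 (first scan) and 11182 (scan as block), and median centring gave 5210 for pcDNA3.1-MEG3 against the negative control. Leaving out a sample gave 1024 to 7445, 0 to 2406, 524 to 9169, 360 to 9305, 627 to 7596 and 708 to 9107 in that order. Values of Igfbp4 on the siRNA arrays and of Mstn on every array are limited by signal near the background.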
